A study of Mus musculus with 13 samples.

Results

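The isocitrate dehydrogenases convert isocitrate to 2-oxoglutarate, and the mouse genome encodes them in 5 genes, Idh3a, Idh3b, Idh3g, Idh1 and Idh2. Their transcripts were followed in whole retinae of PGC-1α knockout (KO) and wild type (WT) mice, as the probe sets annotated with exactly 1 of these symbols. Each gene had 1 such probe set, so that 5 of the 19937 genes measured are described. The family was selected on the measured log2 levels of Idh3a, which were lower in KO than in WT retinae both in the dark and after light. Both differences of Idh3a are therefore given as a description without a test.

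IDH3 is the NAD-dependent enzyme of the mitochondrial citrate cycle and is built of α, β and γ subunits, encoded by Idh3a, Idh3b and Idh3g. The α subunit holds catalytic residues and pairs with β or γ. IDH2 in mitochondria and IDH1 in the cytosol and peroxisomes are separate homodimers that use NADP and yield NADPH, which serves the reduction of glutathione. Photoreceptors have a high mitochondrial energy demand, and inherited loss of human IDH3A or IDH3B causes retinitis pigmentosa. PGC-1α, the product of Ppargc1a, works with transcription factors such as the estrogen-related receptors to raise genes of oxidative metabolism.

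RNA of the retinae of each mouse was hybridised to an Affymetrix Mouse Gene 1.0 ST array, and the series holds 13 arrays. KO dark (n = 3) and WT dark (n = 4) mice were kept in darkness, and KO light (n = 3) and WT light (n = 3) mice received 15000 lux for 2 h. The KO mice lack PGC-1α in all tissues, and both genotypes are on a C57BL/6 background. For WT the methods name the NRj substrain whereas the paper's captions name C57BL/6j, and no substrain is named for KO. Per the methods mice were 6 to 13 weeks old, were dark-adapted for 16 h and recovered in the dark overnight after light, whereas the design text of the series has the eyes removed after the exposure. The labels give female for all dark mice but the fourth WT mouse, a male, and male for all mice exposed to light, while the methods name male mice only. Light and sex therefore cannot be told apart in the comparisons of light with dark. Differences between KO and WT were made within 1 light state and 1 labelled sex.

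Values are log2 intensities, and the median of every array lay between 141.1 and 145.6 in intensity. Levels can be compared between arrays for a gene, but not between genes, since probe sets differ in brightness. A gene was called when limma gave an adjusted p under 0.05 and its ratio reached 1.2 or fell to 0.87, over 12 arrays without WT dark replicate 4. Across all genes the array labelled WT dark replicate 4 correlated at r = 0.998 and 0.997 with KO light replicates 1 and 2 and at 0.989 with each of the other WT dark arrays. The array labelled KO light replicate 3 correlated at 0.997 with WT dark replicates 1 to 3 and at 0.991 and 0.993 with KO light replicates 1 and 2. The members, and the lists where their values change, are therefore also given with "exchanged arrays", a KO light group of replicates 1 and 2 and the array labelled WT dark replicate 4. The transcript of the targeted gene itself, Ppargc1a, stood at 10.40, 10.19 and 10.26 in KO dark and at 10.03, 10.01 and 10.02 in WT dark. After light it stood at 10.02, 10.25 and 9.96 in KO and at 9.96, 9.85 and 9.99 in WT. It was not lower in the KO arrays, and no source used here says whether its probe set lies in the deleted part, so that it does not check the labels. In whole retina, fewer cells of a type and less RNA per cell cannot be told apart.

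Idh3a, on chromosome 9, had the largest difference between the genotypes among the 5 genes with the arrays as labelled. Its log2 level was 9.51, 9.49 and 9.47 in KO dark and 9.93, 9.90 and 9.86 in WT dark. After light it was 9.78, 9.85 and 9.87 in KO and 10.07, 10.07 and 10.16 in WT. Every KO array lay below every WT array of the same light state, a separation that 7.45% of all genes had in the dark and 8.45% after light. The array labelled WT dark replicate 4, at 9.85, lay just below the other WT dark arrays and within the KO light arrays.

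The mean of Idh3a was 9.49 ± 0.02 (SD, n = 3) in KO dark against 9.90 ± 0.04 (SD, n = 3) in WT dark, a log2 difference of -0.41 (SE 0.05) or a ratio of 0.755. After light it was 9.83 ± 0.05 (SD, n = 3) in KO against 10.10 ± 0.05 (SD, n = 3) in WT, a log2 difference of -0.27 (SE 0.05) or a ratio of 0.831. With the exchanged arrays the latter was -0.27 with a ratio of 0.828, and leaving out any single array kept it between -0.29 and -0.24. The dark difference stayed between -0.43 and -0.39. Of all genes 0.0451% were called lower in KO dark and 0.0552% in KO light, and nothing is read from the presence of Idh3a among them.

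The groups ran in the order KO dark, KO light, WT dark and WT light for Idh3a. KO light and WT dark, next to each other in this order, differed by 0.06 in their means and overlapped, so that the light-exposed KO retina held about the level of the WT retina in the dark. In the exchanged arrays these neighbours differed by 0.07 and no longer overlapped. KO dark and WT light lay apart from their neighbours in both cases.

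**Figure D1:**
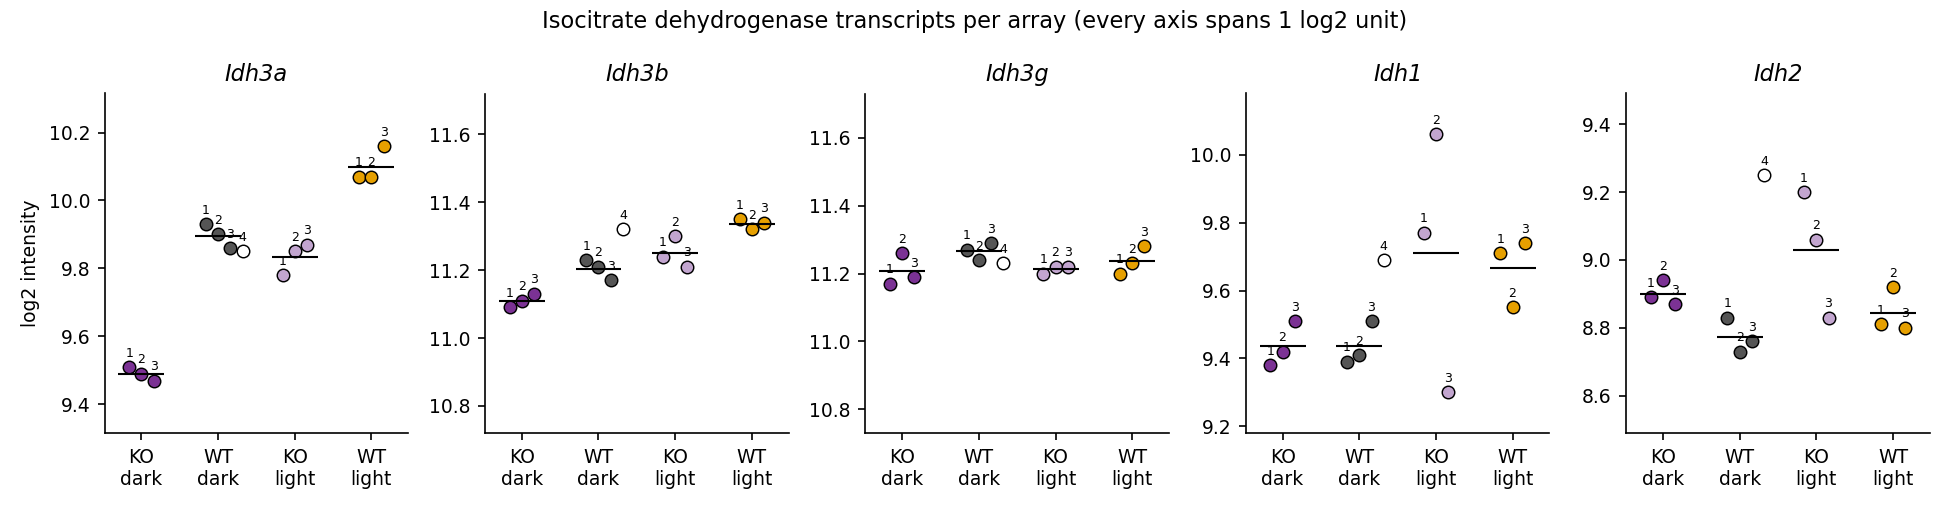
Log2 intensity (vertical axis) of the 5 isocitrate dehydrogenase transcripts in KO dark, WT dark, KO light and WT light retinae, with 1 point per array, the replicate number above it and a line at the mean of replicates 1 to 3. The open point is the array labelled WT dark replicate 4, which is in no mean. Idh3a separates KO from WT in both light states, Idh3g lies between 11.17 and 11.29 throughout, and KO light replicate 3 holds the lowest KO light level of Idh1 (9.30) and of Idh2 (8.83).

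Idh3a was also higher after light than in the dark. In KO retinae the log2 difference was 0.34 (SE 0.05, ratio 1.27), between 0.32 and 0.37 with any single array left out, and 0.34 with the exchanged arrays. In WT retinae it was 0.20 (SE 0.05, ratio 1.15). These differences use the arrays that chose the family, so that they too are given without a test. The light-exposed arrays lay above the dark arrays of replicates 1 to 3 of the same genotype, as they did for 6.44% of all genes in KO and 17.5% in WT. Of the other 4 members 0 passed in limma's comparison of KO light with KO dark, where 0.0652% of all genes were called higher, and only Idh3b had an unadjusted p under 0.05.

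The light difference of KO minus that of WT was 0.14 (SE 0.07, 95% interval -0.00 to 0.28) for Idh3a, given without a test since the differences that chose it make it up, and 0.13 with the exchanged arrays. None of the other 4 members was called for this quantity by limma, where 0.0602% of all genes were called, and 0 of these 4 had an unadjusted p under 0.05.

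The β and γ subunits, partners of the α subunit in the same enzyme, did not show a difference of that size. Of the 4 other members, 0 passed in limma's comparison of KO dark with WT dark, where 0.0752% of all genes were called, and 0 had an unadjusted p under 0.05. Between KO light and WT light 0 of these 4 were called by limma, where 0.176% of all genes were called, and only Idh2 had an unadjusted p under 0.05. Without moderated variances the counts were also 0.

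Idh3b, on chromosome 2, stood at 11.09, 11.11 and 11.13 in KO dark and at 11.23, 11.21 and 11.17 in WT dark. After light it stood at 11.24, 11.30 and 11.21 in KO and at 11.35, 11.32 and 11.34 in WT. The KO arrays were below the WT arrays without overlap in both states, as were 7.45% of all genes in the dark and 8.45% after light. The size was small: the log2 difference was -0.09 in the dark (95% interval -0.19 to 0.00, limma adjusted p = 0.727) and -0.09 after light (95% interval -0.19 to 0.00, limma adjusted p = 0.407). With the exchanged arrays the difference after light was -0.05 (limma adjusted p = 0.431), since the array labelled WT dark replicate 4 held 11.32. Light against dark gave 0.14 in KO (limma adjusted p = 0.219) and 0.14 in WT (limma adjusted p = 0.154), and with the exchanged arrays 0.17 in KO (adjusted p = 0.0079), where the ratio of 1.13 fell short of the threshold.

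Idh3g, on the X chromosome, varied least. It stood at 11.17, 11.26 and 11.19 in KO dark, 11.27, 11.24 and 11.29 in WT dark. After light it stood at 11.20, 11.22 and 11.22 in KO and at 11.20, 11.23 and 11.28 in WT. All neighbours in the order of its 4 groups overlapped. The KO minus WT difference was -0.06 in the dark (95% interval -0.15 to 0.04, limma adjusted p = 0.915) and -0.02 after light (95% interval -0.12 to 0.08, limma adjusted p = 0.894). The intervals of both lie above the measured difference of Idh3a in the same state.

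Within an array, the log2 level of Idh3a was set against the mean of Idh3b and Idh3g, which removes any factor common to the array. The absolute value of this quantity depends on the probe sets, and only its change between groups is read. It was -1.62, -1.70 and -1.69 in KO dark and -1.32, -1.32 and -1.37 in WT dark, a difference of -0.33. After light it was -1.44, -1.41 and -1.34 in KO and -1.20, -1.20 and -1.15 in WT, where KO minus WT was -0.21. KO and WT arrays of a light state did not overlap, and the exchanged arrays gave -0.24 after light. Against Idh3b alone the differences were -0.31 and -0.18 and against Idh3g alone -0.35 and -0.25, in the dark and after light. Since Idh3a enters this quantity, it is a description too.

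**Figure D2:**
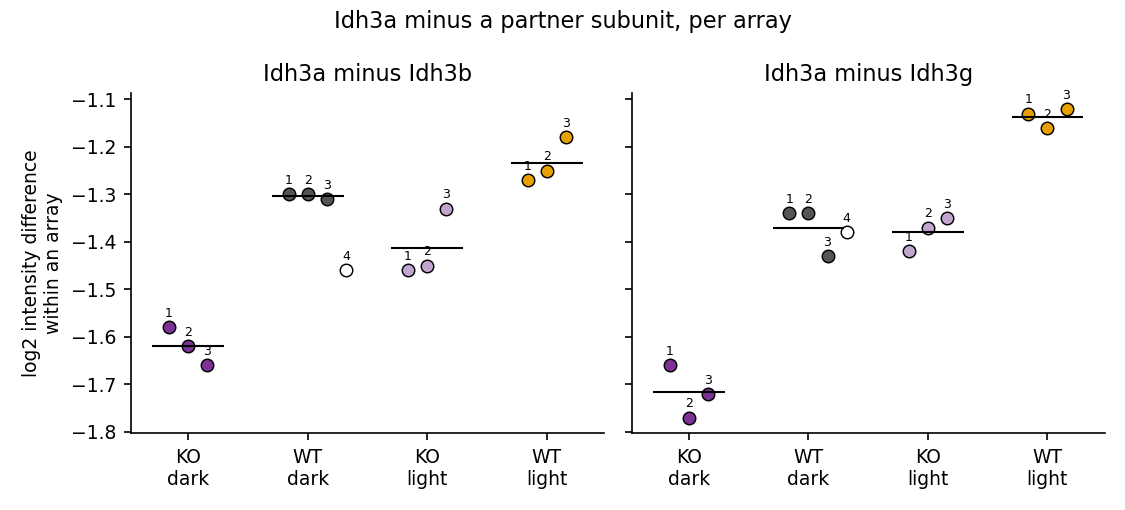
Log2 intensity of Idh3a minus that of Idh3b (left) or of Idh3g (right) within each array (vertical axis, log2 units), with 1 point per array in KO dark, WT dark, KO light and WT light and a line at the mean of replicates 1 to 3. The open point is the array labelled WT dark replicate 4. KO dark is lowest and WT light highest in both panels, and KO minus WT is -0.31 and -0.35 in the dark and -0.18 and -0.25 after light.

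Over the 12 arrays Idh3a correlated with Idh3b at r = 0.90 and with Idh3g at r = 0.39, with Idh1 at 0.31 and with Idh2 at -0.25. Idh3b and Idh3g correlated at 0.16. These values share the same arrays and follow largely from the means of 4 groups, so that they are a description without a test. The α and β subunit transcripts thus ran in parallel over the arrays, with a smaller range for β, and γ did not.

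The promoters of the partner subunits are shown because Idh3b tracked Idh3a over the arrays and Idh3g did not. They are the 250 bases before the start of each gene in RefSeq on GRCm38.p6, of which the table used here holds 4 of the 5 members. Idh3b lies on the minus strand, at chr2:130284452-130284701, with 46.8% GC, and Idh3g on the minus strand, at chrX:73786898-73787147, with 62.8% GC. Capitals mark the searched motifs.
Idh3b: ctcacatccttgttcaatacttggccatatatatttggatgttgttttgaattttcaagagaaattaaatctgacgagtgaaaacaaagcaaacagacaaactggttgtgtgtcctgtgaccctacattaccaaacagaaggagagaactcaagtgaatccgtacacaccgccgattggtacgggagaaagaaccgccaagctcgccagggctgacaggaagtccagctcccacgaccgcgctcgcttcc
Idh3g: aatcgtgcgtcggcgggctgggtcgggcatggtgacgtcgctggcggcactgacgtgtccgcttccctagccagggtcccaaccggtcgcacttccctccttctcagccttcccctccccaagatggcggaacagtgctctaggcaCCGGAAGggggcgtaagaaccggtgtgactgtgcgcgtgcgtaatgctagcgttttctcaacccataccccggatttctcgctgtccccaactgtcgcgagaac
The motifs, searched on both strands, were those of the estrogen-related receptors (TCAAGGTCA, in 0.387% of all 32851 promoters of this length), the shorter nuclear receptor site AAGGTCA (4.08%), which lies within it, NRF1 (GCGCA, any base, then GCGC, 3.74%), the ETS family with GABP (CCGGAAG, 6.91%), the cAMP response element (TGACGTCA, 1.55%), the E box CACGTG (6.02%) and Sp1 (GGGCGG, 32.7%). CCGGAAG was found once, 104 to 98 bases before the start of Idh3g, and none of the motifs was found in the window of Idh3b. The windows of Idh1 and Idh2 held GGGCGG and none of the others. A match is no evidence of binding, and the absence of these letters says nothing about a factor.

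Idh1 and Idh2, the NADP forms, had means in KO retinae at or above those in WT. Idh2, on chromosome 7, stood at 8.89, 8.94 and 8.87 in KO dark and at 8.83, 8.73 and 8.76 in WT dark, so that all KO arrays lay above all WT arrays, as did 9.26% of all genes. This difference was 0.12 (95% interval -0.05 to 0.29, limma adjusted p = 0.857) and was not called. The array labelled WT dark replicate 4 held 9.25, above every KO dark array, and with it added to WT dark the difference was 0.00 (limma adjusted p = 0.998). After light Idh2 stood at 9.20, 9.06 and 8.83 in KO and at 8.81, 8.92 and 8.80 in WT, and KO light replicate 3 was the array that overlapped WT.

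As labelled, Idh2 differed by 0.19 between KO light and WT light (SE 0.08, limma adjusted p = 0.344). For the exchanged arrays the difference was 0.33 (SE 0.06, ratio 1.26, limma adjusted p = 0.00229) and was called, as were 4.56% of all genes in the higher direction. Without KO light replicate 3 it was 0.29 (limma adjusted p = 0.0142) and was called, as were 3.21% of all genes. Against KO dark, Idh2 in KO light differed by 0.13 as labelled (limma adjusted p = 0.482) and was called with the exchanged arrays at 0.27 (limma adjusted p = 0.00365). In WT retinae light against dark gave 0.07 (limma adjusted p = 0.682). The call of Idh2 in light-exposed KO retinae thus depended on which array was the third of that group. The light difference of KO minus that of WT was not called, at 0.07 as labelled (limma adjusted p = 0.941) and 0.20 with the exchanged arrays (limma adjusted p = 0.208), where 2.78% of all genes were called.

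Idh1, on chromosome 1, was equal between the genotypes in the dark, at 9.38, 9.42 and 9.51 in KO and 9.39, 9.41 and 9.51 in WT. The difference was 0.00 (95% interval -0.30 to 0.30, limma adjusted p = 1). After light it stood at 9.77, 10.06 and 9.30 in KO and at 9.71, 9.55 and 9.74 in WT, and the SD of 0.39 in KO light was wider than in any other group of the 5 genes. KO light against WT light gave 0.04 (limma adjusted p = 0.934), or 0.17 with the exchanged arrays (limma adjusted p = 0.206).

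Light against dark in KO gave 0.27 for Idh1 as labelled (limma adjusted p = 0.415). It was called at 0.40 with the exchanged arrays (ratio 1.32, limma adjusted p = 0.00423) and at 0.48 without KO light replicate 3 (limma adjusted p = 0.00342), where 7.01% and 5.68% of all genes were called higher. In WT the difference was 0.23 (limma adjusted p = 0.425), with every light array above dark replicates 1 to 3, as were 17.5% of all genes. The array labelled WT dark replicate 4 held 9.69, above WT light replicate 2 at 9.55, and with it added the difference was 0.17 (limma adjusted p = 0.724). Of the 4 members other than Idh3a 0 were called between WT light and WT dark by limma, where 0.431% of all genes were called, and only Idh3b had an unadjusted p under 0.05 there.

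**Figure D3:**
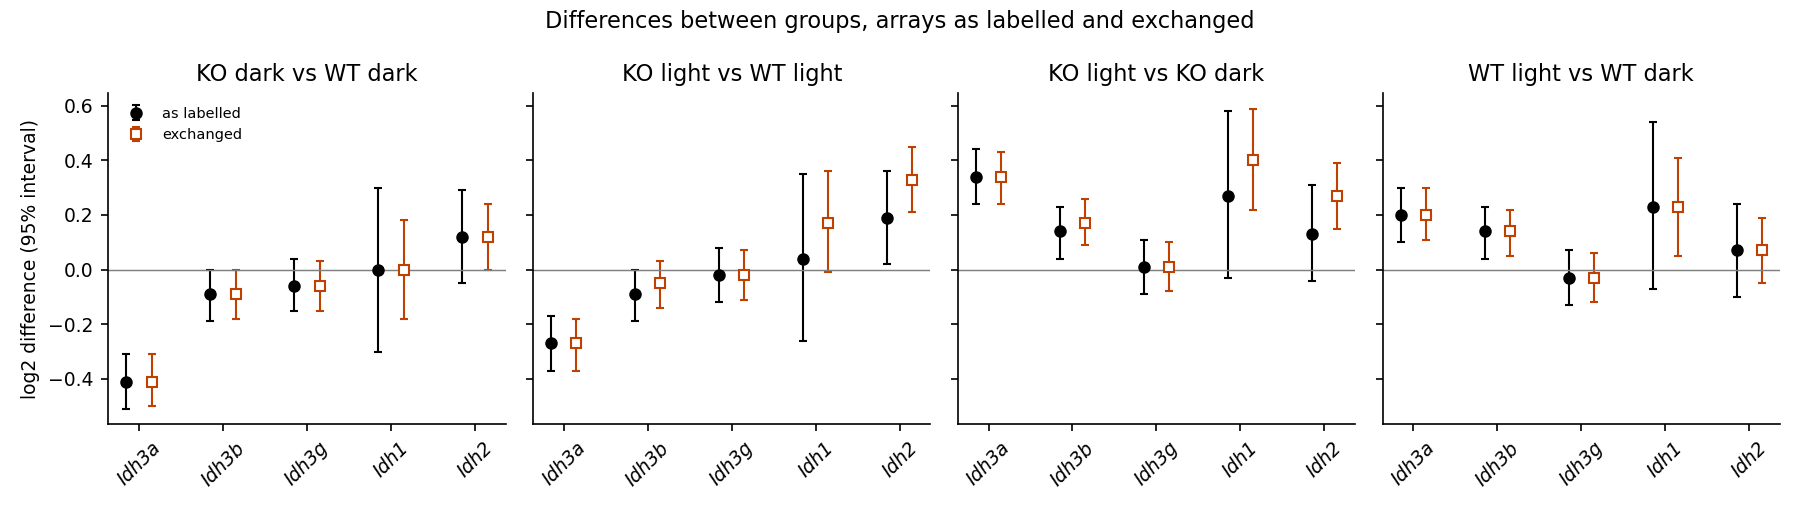
Log2 differences (vertical axis) of the 5 transcripts with 95% intervals from the limma fit, in 4 comparisons, for the arrays as labelled (filled circles) and exchanged (open squares). Idh3a lies at -0.41 and -0.27 in the genotype comparisons, Idh3g stays within 0.06 of 0, and the intervals of Idh1 and Idh2 move off 0 in KO light against KO dark with the exchanged arrays only.

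The arrays in which Idh1 and Idh2 stood high in KO light were also those with high transcripts of reactive glia. Gfap, a filament protein that Müller glia raise on injury, stood at 9.75, 9.88 and 7.37 in KO light replicates 1, 2 and 3 and at 9.71 in the array labelled WT dark replicate 4. It stood between 7.07 and 7.47 in the other dark arrays and at 7.91, 8.39 and 8.98 in WT light. In the same WT light replicates Idh1 was 9.71, 9.55 and 9.74 and Idh2 was 8.81, 8.92 and 8.80, neither in the order of Gfap. All 8 listed markers of reactive glia had a higher mean in KO light than in WT light, with a median difference of 0.73 and none called. With the exchanged arrays, where 4.56% of all genes were called higher, all 8 were called with a median of 1.48. Their mean level ranged from 8.03 to 10.02 in KO light, from 8.06 to 8.86 in WT light, from 7.78 to 7.89 in KO dark and from 7.63 to 7.93 in WT dark, and was 10.29 in the array labelled WT dark replicate 4. The part of glial reaction in the levels of Idh1 and Idh2 was not tested.

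Rod markers, and most cone and bipolar markers, had lower means beside Idh3a in KO light. This held for all 9 measured rod markers, none of them called as labelled, with a median difference of -0.18 from WT light, and their mean level ranged from 11.83 to 12.07 in KO light and from 12.12 to 12.20 in WT light. When arrays were exchanged, 6 of the 9 were called lower, with a median of -0.27, where 3.66% of all genes were called lower. In the dark 8 of 9 had a lower mean and their median difference was -0.02, with a mean level of 12.10 to 12.12 in KO and of 12.11 to 12.18 in WT, while Idh3a differed by -0.41. The part of rod content in the difference of Idh3a after light was not tested. Pde6a, a rod phosphodiesterase subunit chosen after its values were seen, stood between 12.75 and 12.84 in the dark arrays of the fit. After light it stood at 12.63, 12.76 and 12.75 in KO, below 12.92, 12.88 and 12.92 in WT. KO light replicates 2 and 3 thus lay within its dark range, and the WT light arrays above it. Among the 9 rod markers it had the largest difference between WT light and WT dark.

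Lists of other cells also had differences beside that of Idh3a in the dark, although none of their genes was called as labelled. Over all genes, 9.26% were higher and 7.45% lower in KO dark without overlap. All 6 amacrine markers had a higher mean in KO dark, 4 of them without overlap. Their mean level was 10.06 to 10.07 in KO and 9.93 to 9.95 in WT. All 6 lens markers had a higher mean in KO dark (median 0.99, 1 without overlap), with a mean level of 7.81 to 9.03 in KO and of 6.96 to 8.12 in WT. Of 8 cone markers 5 had a lower mean in KO dark, 4 of them without overlap, and 1 was higher without overlap. Müller glia markers had a higher mean in KO dark for 6 of 7 (3 without overlap) and bipolar markers for 5 of 6 (2 without overlap). In the fit with the exchanged arrays, Tfap2a of the amacrine list was called higher in KO dark and Slc17a6 of the ganglion cell list lower. Of all genes 0.326% and 0.552% were called so. The part of cell makeup in the differences of the members was not tested.

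The rest of the citrate cycle was measured with 13 of 14 listed genes, of which 0 were called by limma in either comparison of genotypes. In KO dark 13 of 13 had a lower mean than in WT dark, with a median of -0.13 against 0.00 over all genes. Of these, 9 did not overlap between the groups, against 7.45% of all genes, and 7 had an unadjusted p under 0.05, against 7.1% of all genes. After light 12 of 13 were lower in KO, with a median of -0.10 against -0.01 over all genes, 7 without overlap, against 8.45% of all genes, and 6 with an unadjusted p under 0.05, against 12.9% of all genes. When arrays were exchanged, 10 of 13 were lower after light with a median of -0.09. Dld and Sdhd were then called lower, as were 3.66% of all genes. From dark to light all 13 had a higher mean in KO and 12 of 13 in WT, and none was called as labelled. Both medians were 0.13, against -0.00 in KO and 0.02 in WT over all genes. An unadjusted limma p under 0.05 was found for 10 in KO and 7 in WT, against 13.9% and 17.1% of all genes. With the exchanged arrays Sdhd and Suclg2 were called higher in KO and Dld in WT, as were 7.01% and 2.13% of all genes. Light and sex change together in these comparisons.

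Sdhd, a membrane anchor of succinate dehydrogenase, differed most among these. Its log2 level was 8.06, 8.26 and 8.10 in KO dark and 8.67, 8.54 and 8.57 in WT dark. After light it was 8.38, 8.43 and 8.54 in KO and 8.96, 8.78 and 8.73 in WT. The groups were apart in both states, by -0.46 in the dark (limma adjusted p = 0.051) and by -0.38 after light (limma adjusted p = 0.0677), just short of a call. Under the exchange of arrays it was called in both, with an adjusted p of 0.00411 in the dark and 0.00164 after light, where 0.552% and 3.66% of all genes were called lower. Sdha, the flavoprotein subunit of the same complex, differed by -0.21 in the dark (limma adjusted p = 0.193) and by -0.07 after light (limma adjusted p = 0.622).

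The other lists around isocitrate and 2-oxoglutarate had no called gene as labelled. Over the 67 genes of all lists, the 13 of the citrate cycle included, 16 had an unadjusted p under 0.05 in the dark and 21 after light, or 23.9% and 31.3% against 7.1% and 12.9% of all genes. Genes for pyruvate entry (12 of 13 measured) had a median of -0.05 in the dark and -0.04 after light. Within them Pdha1, a subunit of pyruvate dehydrogenase, differed by -0.18 in the dark (limma adjusted p = 0.193), and Pdp1, the phosphatase that activates this enzyme, by 0.22 (limma adjusted p = 0.0911). Carriers and transaminases that exchange isocitrate and 2-oxoglutarate (15 of 16 measured) had medians of -0.05 and -0.01. Among them the aspartate-glutamate carrier Slc25a12 stood at 10.93, 10.98 and 10.96 in KO dark and at 11.19, 11.14 and 11.17 in WT dark. This was a difference of -0.21 (limma adjusted p = 0.0857, 0.0167 and called with the exchanged arrays). The glutamate carrier Slc25a22 differed by 0.19 (limma adjusted p = 0.407). After light, with the exchanged arrays, Pdp2 of the genes for pyruvate entry was called lower. Mdh1 and Slc25a1 of the exchange list were called in that comparison too, 1 higher and 1 lower. Of all genes 4.56% were called higher and 3.66% lower there.

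Other sources of NADPH (14 of 15 measured) supply the same cofactor as Idh1 and Idh2. They had medians of -0.02 in the dark and -0.01 after light and held differences of both signs. With the exchanged arrays Aldh1l1, Aldh1l2, Me2 and Nadk2 were called after light. Of these 1 was higher and 3 lower, against 4.56% and 3.66% of all genes. Me1, the cytosolic malic enzyme, stood at 10.36, 10.19 and 10.27 in KO dark and at 9.70, 9.47 and 9.61 in WT dark, a difference of 0.68 (limma adjusted p = 0.0768). After light it stood at 9.84, 9.99 and 9.44 in KO and between 9.94 and 10.25 in WT, which is -0.31 (limma adjusted p = 0.327), so that its difference had the opposite sign. The light difference of KO minus that of WT was -0.99 for Me1 (limma adjusted p = 0.104) and was called at -0.84 with the exchanged arrays (limma adjusted p = 0.00335). Called there too were 2.78% of all genes, with Aldh1l1, Slc25a1 and Esrrb among the listed genes. Mthfd2, a mitochondrial folate enzyme, stood at 7.18, 7.25 and 7.01 in KO dark and at 7.67, 7.62 and 7.78 in WT dark, a difference of -0.55 (limma adjusted p = 0.0811). In the dark Me1 was called higher and Mthfd2 lower in the fit with the exchanged arrays, at limma adjusted p of 0.00116 and 0.0299. The dark arrays are the same in that fit, where 0.326% of all genes were called higher and 0.552% lower. Nnt, the transhydrogenase whose loss marks some C57BL/6 substrains, differed by 0.00 in the dark and by -0.00 after light (limma adjusted p = 1 and 0.991).

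The enzymes that remove 2-hydroxyglutarate (2 of 3 measured) differed little in the dark, Adhfe1 by 0.15 (limma adjusted p = 0.933) and D2hgdh by 0.01 (limma adjusted p = 0.997). Coactivators and regulators (11 of 11 measured) had medians of -0.00 in the dark and -0.08 after light. With the exchanged arrays the median after light was -0.15 and 3 of them were called, as were 8.23% of all genes. Besides Ppargc1a, with 0.26 on its probe set, Sirt5, a mitochondrial deacylase, differed most in the dark, at 7.71, 7.84 and 7.84 in KO and 7.93, 8.03 and 7.88 in WT.

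**Figure D4:**
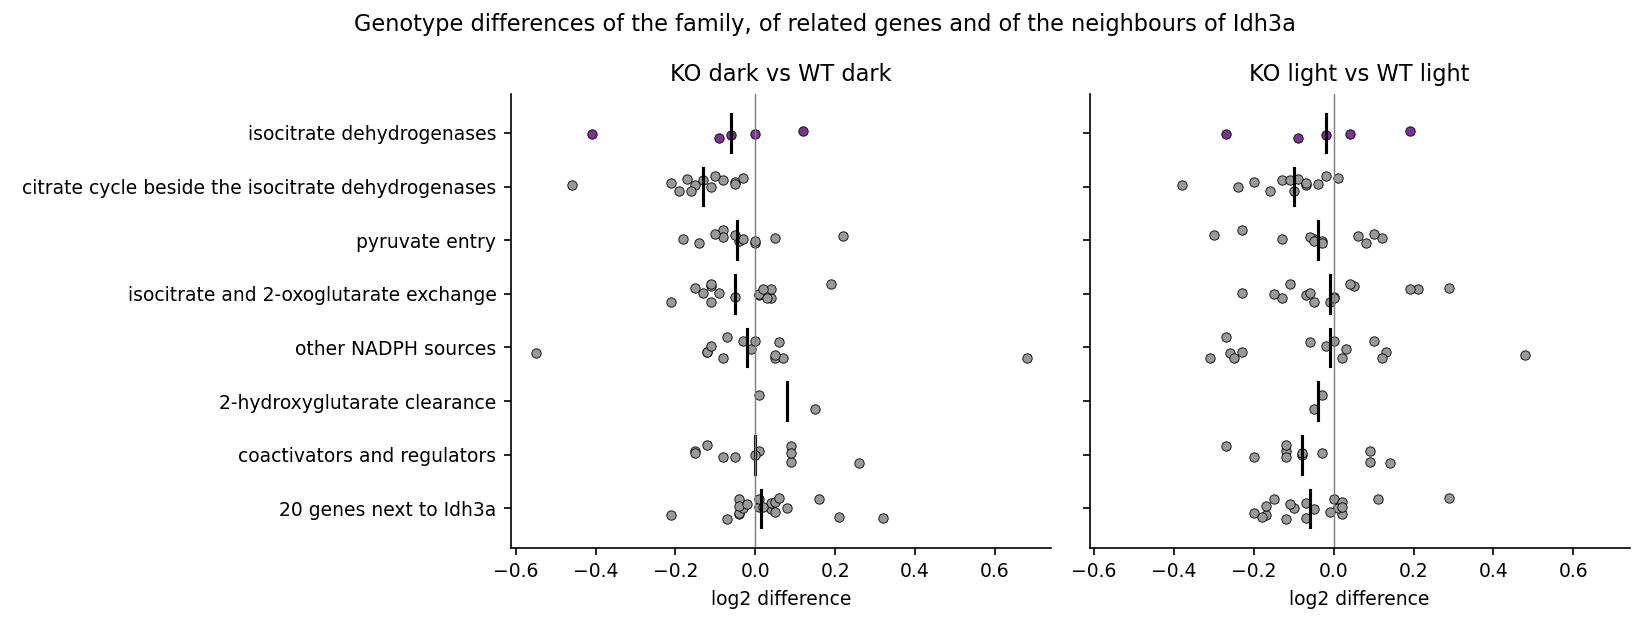
Log2 differences between KO and WT (horizontal axis) in the dark (left) and after light (right), with 1 point per gene and a line at the median of each list. Points are spread vertically for legibility only. Idh3a is the leftmost isocitrate dehydrogenase at -0.41 and -0.27, the citrate cycle list has a median of -0.13 in the dark, and the 20 measured genes nearest to Idh3a have medians of 0.01 and -0.06.

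The genes beside Idh3a on chromosome 9 had differences of both signs. Of the 20 measured genes nearest to it, 10 on each side, 0 were called by limma in either comparison of genotypes as labelled. In the dark 8 of 20 had a lower mean in KO (median 0.01, range -0.21 to 0.32), and after light 12 of 20 (median -0.06, range -0.20 to 0.29). The nearest on either side were Tnfaip8l3, Gldnos, Gldn, Dmxl2 and Sh2d7, and Acsbg1, Dnaja4, Wdr61, Crabp1 and Ireb2. Dnaja4, a co-chaperone, was the only 1 of the 20 with all KO dark arrays below all WT dark arrays, at -0.21 (limma adjusted p = 0.434), while 4 of the 20 had all KO dark arrays above WT, shares of all genes being 7.45% and 9.26%. After light 4 were lower and 1 higher without overlap, against 8.45% and 5.63% of all genes. When arrays were exchanged, 14 of 20 were lower after light (median -0.08). Dnaja4 was then called lower and Chrna3 higher, as were 3.66% and 4.56% of all genes. Of the 20 genes around each of the other 4 members none was called as labelled. With the exchanged arrays, 5 of the 20 around Idh2 were called lower after light and 1 higher, against 3.66% and 4.56% of all genes. Around Idh3b 1 was called lower, around Idh3g 1 lower and 1 higher, and around Idh1 1 higher. In the dark of that fit 1 gene beside Idh1 and 1 beside Idh2 were called, against 0.878% of all genes.

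The genes whose pattern was most like that of Idh3a over the 12 arrays, by Pearson's r, were Asns (0.97), Vps11, Ndrg4, Atp5g1, Fuom and Pdha1 (0.96 each), Slc7a5 (0.95), and Itfg2, Slc25a12 and Slc17a6 (0.94 each). Asns makes asparagine, Slc7a5 carries large neutral amino acids, and Atp5g1 encodes subunit c of the ATP synthase. The most opposite were Asic3 (-0.96), Sez6 and Tfap2a (-0.95 each), and Chrm2 and Igsf9 (-0.94 each). When arrays were exchanged, 8 of the 10 were again among the first 10, but only 3 by Spearman's rho (Slc7a5, Fuom and Asns) and only Slc7a5 over the 6 dark arrays.

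The other members had different genes beside them. Idh3b was closest to Slc6a17 (0.97), Surf1 (0.96), an assembly factor of cytochrome c oxidase, and Pfdn5 (0.95). Idh3g was closest to Slc16a7 (0.85), Ceacam15 (0.84) and Ube2cbp (0.83), none as close as the first genes of the others. Idh1 was closest to Fdps, an enzyme of isoprenoid synthesis, Nes and Ddah2 (0.96 each), and Idh2 to Dusp26 (0.95), Pde3a (0.94) and Dgcr8 (0.93). All these values are descriptions over the same 12 arrays.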

How the data were processed

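Total RNA of mouse retina was hybridised to Affymetrix Mouse Gene 1.0 ST arrays. The deposited values are intensities per probe set on a linear scale, which the authors made from CEL files with Partek and Bioconductor. The sources used here do not give versions, summarisation, normalisation or build. No background per probe set was used, so dim probe sets were kept, and the number of arrays limits the precision.

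Intensities were taken to log2. Of 34760 probe sets, 21640 carry 1 symbol, 1321 several and 11799 none in GEO's platform annotation. The 21640 were averaged per gene to 19937 genes. Of them 21553 matched RefSeq (GRCm38.p6), used for names, chromosomes, neighbours and promoters.

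A linear model of the 4 groups was run over 12 arrays in limma (version 3.58.1, R 4.3.3, 8 residual degrees of freedom before moderation), and p-values received the Benjamini-Hochberg adjustment across all genes. WT dark replicate 4 was left out because the paper's captions give n = 3, although they do not say which array was left out. The interaction of genotype and light was called at an adjusted p under 0.05 alone. The labels name biological replicates. The fit was checked on simulated data. Alternatives were exchanged or left-out arrays, normalisation, a filter on dim genes, variance models, ratio thresholds, single probe sets and a replicate block.

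The members and lists were chosen with earlier results of these data known. Named genes were the members, Ppargc1a, per list the called genes or the 2 with the largest dark difference, the 5 genes on each side of Idh3a, the 10 most and 5 least like Idh3a, and the 3 most like each other member, without predicted genes, RIKEN clones and small RNAs. Gfap was named for glia and Pde6a for rods, the latter chosen after its values were seen. Nnt was added for the strain background.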

Additional observations from a re-analysis of the deposited data

How the results depend on the processing

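The genotype differences of Idh3a kept their direction under every alternative run. This is no independent support, since these differences chose the family and their groups do not overlap, so that leaving out an array could not reverse them. No result changed sign past a threshold. The count of members called between KO light and KO dark was 1 as labelled (Idh3a, whose KO arrays also chose the family, so that its call is no independent test), 3 with the exchanged arrays (with Idh1 and Idh2), 0 with WT dark replicate 4 added, 0 with the KO groups fitted alone, 0 with the replicate block and 0 to 2 with 1 array left out. The count of the other 4 members called between KO light and WT light was 0 as labelled, 1 with the exchanged arrays (Idh2) and 0 to 1 with 1 array left out.

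For the 67 genes of the other lists, 0 were called as labelled in each comparison. With the exchanged arrays 4 were called in KO dark against WT dark, 12 in KO light against WT light, 15 in KO light against KO dark and 4 in WT light against WT dark. Of all genes 0.878%, 8.23%, 13.3% and 4.41% were called in that fit, in the same order. With the groups of a comparison fitted alone the counts were 3 in KO dark against WT dark and 3 in WT light against WT dark. There 0.722% and 3.41% of all genes were called. In KO dark against WT dark 1 was called after quantile normalisation, 1 with dim genes left out, 1 without moderation and 2 with trend and robust. In KO light against WT light and in WT light against WT dark 1 was called with dim genes left out and 1 with trend and robust. Shares of all genes were not counted for these settings. Leaving out 1 array gave 0 to 4, 0 to 8, 0 to 13 and 0 to 4 in the order of the comparisons above, the highest each time without KO light replicate 3. Without that array 0.853%, 5.24%, 9.94% and 4.3% of all genes were called. Of the 10 genes most like Idh3a, 1 was shared over the 6 dark arrays and 3 by Spearman's rho. The cause of these shifts was not tested.

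The deviations of same-numbered arrays from their group means correlated at -0.19 to 0.22 over the comparisons. With 3 arrays per group, and KO light replicate 3 unlike the rest of its group, this cannot show whether the numbers pair the mice. The replicate block took the count of members called between KO light and KO dark from 1 to 0. The 3 arrays per group limit what could be called, and signal over background was not known.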
